A study of Mus musculus with 12 samples.

Results

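Hepatic expression of 10 iron-handling genes was described in F1 male mice. The genes were Scara5, Tfrc, Tfr2 and Steap4 (iron uptake), Fth1 and Ftl1 (storage), Slc40a1 (export), Hamp and Hamp2 (the hepcidin genes) and Bmp6 (a ligand that controls hepcidin). They were selected by symbol, as 10 of the 21683 genes in the table of estimated counts. The tested livers came from 6 F1 males whose sires had been gavaged with dicyclohexyl phthalate (DCHP), a phthalate plasticizer, for 4 weeks from 8 weeks of age. The 6 control livers came from F1 males whose sires had received only the corn oil vehicle. All F1 mice were wild type on the C57BL/6J background, had unexposed mothers and ate a high-fat diet (HFD) from 3 weeks of age, during 9 weeks, so that the comparison asks how paternal DCHP altered the liver of HFD-fed sons. The labels do not say which sons shared a sire or litter, and p-values therefore measure the spread between these livers.

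The symbols were chosen with the difference between paternal DCHP and control already known for these livers. That difference is accordingly given for the 10 genes as a description, and no p is reported for it. Tests are reported only for genes outside the 10 and for relations between livers of 1 group. Those genes are other iron genes, cell type markers and acute phase genes. Their lists and the pairs correlated were also chosen with earlier results of these data known.

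Iron reaches hepatocytes bound to transferrin, through transferrin receptors, and also as non-transferrin iron or ferritin. Inside the cell it is stored in ferritin, a shell of heavy and light chains, and it leaves through ferroportin, the only known iron exporter of mammals. The liver hormone hepcidin binds ferroportin and causes its degradation, so that hepcidin lowers the release of iron into plasma. Hepcidin transcription is raised by BMP ligands acting through SMAD proteins when iron is plentiful, and by interleukin 6 acting through STAT3 during inflammation.

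The hepcidin genes lie on the minus strand of chromosome 7 (GRCm38): Hamp at chr7:30942368-30944032 and Hamp2 at chr7:30922372-30924681, 17686 bases apart. RefSeq promoter windows of 300 bases matched 8 of the 10 genes. For Hamp, Hamp2 and Steap4, the bases from 150 to 51 upstream of the RefSeq start site are shown. They read 5′ to 3′ on the gene's strand (GRCm38.p6). Capitals mark matches to GGCGCC, a core of BMP-responsive SMAD elements, and to TTCNNNGAA, the core of STAT elements, searched on both strands.
Hamp (chr7:30944080-30944179, minus strand): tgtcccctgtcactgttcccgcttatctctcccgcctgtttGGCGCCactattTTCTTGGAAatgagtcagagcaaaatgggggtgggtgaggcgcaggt
Hamp2 (chr7:30924232-30924331, minus strand): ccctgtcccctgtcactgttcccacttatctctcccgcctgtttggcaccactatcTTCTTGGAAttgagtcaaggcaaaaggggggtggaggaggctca
Steap4 (chr5:7960322-7960421, plus strand): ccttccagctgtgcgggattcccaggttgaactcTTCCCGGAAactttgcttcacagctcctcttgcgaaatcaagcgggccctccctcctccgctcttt

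GGCGCC was found 109 bases upstream of the Hamp start site, and TTCNNNGAA 97 bases upstream. The motifs do not overlap. Hamp2 kept a TTCNNNGAA match, 94 bases upstream of its RefSeq start site, and had no GGCGCC in its window. The stretch printed for Hamp2 lies inside the gene span given above, whose upstream end is at 30924681. The 2 annotations thus place the Hamp2 start differently, and distances and alignment here use the RefSeq start. The aligned Hamp2 stretch differed from the Hamp motif by the substitution G4A, counted from 1 at the first base of the motif with the Hamp base first. Over 247 aligned bases before the RefSeq start sites, the genes were 91.9% identical. Steap4 held a TTCNNNGAA match 116 bases upstream. Among all 32817 promoter windows, 11.9% held GGCGCC and 8.29% held TTCNNNGAA, and a match describes the letters only. Tfrc was the other gene of the 10 with a GGCGCC match, 89 bases upstream.

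Total estimated counts were between 23794728 and 30445338 per liver. Levels are given as CPM, which is the count of a gene scaled to a common library total, after TMM factors had adjusted each library for its composition. All 10 genes passed the filter on low counts, with at least 55 estimated counts in any liver. Differences are log2 fold changes of paternal DCHP over control from an edgeR quasi-likelihood fit across all 12459 genes tested, with their standard error (SE). A gene is called here when its Benjamini-Hochberg adjusted p was under 0.1 and its fold change over 1.5. Of all genes tested, 1.28% were called, 0.963% higher and 0.313% lower in paternal DCHP livers. Among the 10 iron-handling genes, Scara5 and Steap4 were higher and Hamp2 was lower past these limits. The choice of the genes had fixed this count, and nothing is read from it. Over the 10 genes, 5 log2 fold changes were positive and 5 negative, with a median of -0.01, against a median of 0.01 over all genes tested.

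**Figure D1:**
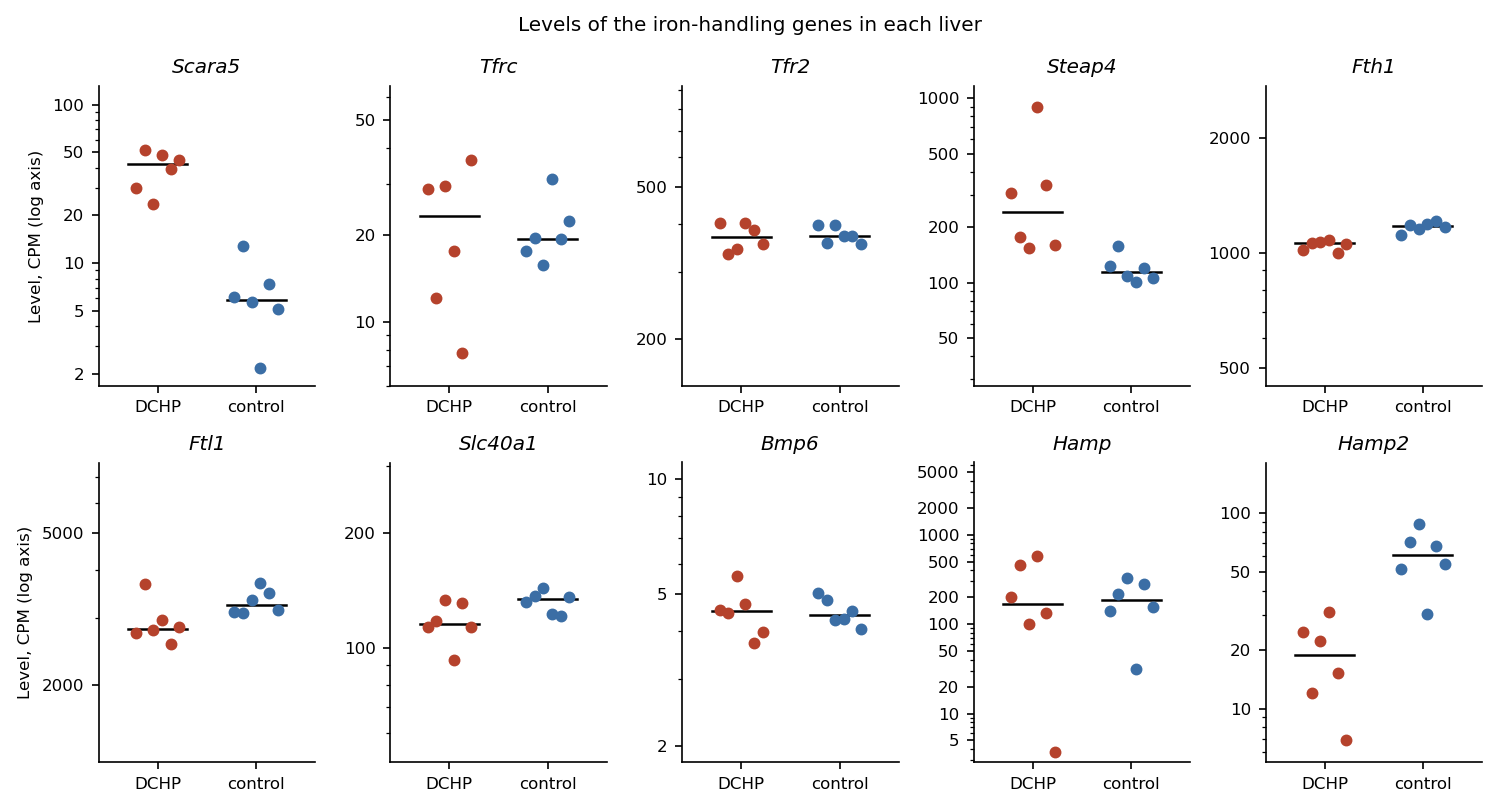
Levels of the 10 genes in each liver, in CPM on log axes, with 6 paternal DCHP livers at the left and 6 control livers at the right of each panel. Points are livers in the order 1 to 6 and bars are medians. Scara5 and Fth1 had groups that did not overlap, and Hamp spanned 3.70 to 574 CPM in paternal DCHP livers.

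Scara5 encodes a scavenger receptor that binds ferritin and takes it up, and it lies on chromosome 14 (chr14:65666403-65764826, plus strand, GRCm38). Its level was 29.6, 52.1, 23.7, 47.9, 39.4 and 45.0 CPM in paternal DCHP livers 1 to 6, against 6.10, 12.9, 5.70, 2.19, 7.36 and 5.12 CPM in control livers 1 to 6. Every paternal DCHP liver was above every control liver. The means were 39.6 ± 11.0 CPM in paternal DCHP livers and 6.56 ± 3.54 CPM in control livers (SD, n = 6 each), and the log2 fold change was 2.59 ± 0.32 (SE). Scara5 was the most changed of the 10 genes by fold. Under the 20 alternatives tried, its log2 fold change lay between 2.41 and 2.90. Groups did not overlap for 2.14% of all genes tested, 0.907% with paternal DCHP higher.

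In mouse tissues Scara5 is known mainly from fibroblasts and epithelia. In bulk liver, more cells of a type and more RNA per cell cannot be told apart. The summed level of 15 portal fibroblast and mesothelial markers was 33.4 to 77.9 CPM in paternal DCHP livers and 35.6 to 53.1 CPM in control livers. Of the 12 markers tested, 8 log2 fold changes were positive and 4 negative, and none was called. Dpt, a fibroblast matrix gene, was 14.6 CPM in DCHP liver 2, which also had the highest Scara5 level. It was 2.13 to 4.74 CPM in the other paternal DCHP livers and 2.49 to 6.50 CPM in control livers. DCHP liver 4, with 47.9 CPM of Scara5, had 3.48 CPM of Dpt. The part of these markers in the Scara5 values was not tested. Hepatic stellate markers summed to 324 to 476 CPM in paternal DCHP livers and 335 to 460 CPM in control livers. Hepatocyte markers had the highest sum of the cell type lists in each library. Alb alone was 40510.1 to 59058 CPM in paternal DCHP livers and 41978 to 53381 CPM in control livers.

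Steap4 encodes a metalloreductase that reduces ferric iron and copper (chr5:7960457-7982213, plus strand, GRCm38). Its level was 307, 176, 154, 897, 339 and 159 CPM in paternal DCHP livers 1 to 6, against 123, 158, 109, 101, 121 and 106 CPM in control livers 1 to 6. DCHP livers 1, 4 and 5 lay well above all controls, while DCHP liver 3, the lowest of its group, lay just below control liver 2. The medians were 242 CPM in paternal DCHP livers and 115 CPM in control livers, and the log2 fold change was 1.5 ± 0.38 (SE). DCHP liver 4 carried much of this value. Without it the log2 fold change was 0.93, and without DCHP livers 1 and 4 it was 0.79. It was 1.21 with limma-voom, where Steap4 did not pass both limits. Steap4 passed them in 12 of the 20 alternatives.

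The remaining uptake genes gave smaller values. Tfrc (chr16:32608920-32632794, plus strand) encodes transferrin receptor 1, whose mRNA is stabilised in iron-poor cells. It ranged from 7.78 to 36.4 CPM in paternal DCHP livers (median 23.2), against 15.7 to 31.3 CPM in control livers (median 19.4). The spread was wider among the paternal DCHP livers, with a coefficient of variation of 50.9% in them and 26.4% in control livers, and the log2 fold change was 0.07 ± 0.31 (SE, 95% interval -0.58 to 0.73). Tfr2 (chr5:137569840-137587481, plus strand), a hepatocyte iron sensor that binds transferrin, was 335 to 404 CPM in paternal DCHP livers and 355 to 398 CPM in control livers. Its log2 fold change was -0.02 ± 0.07 (SE, 95% interval -0.17 to 0.13).

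Both ferritin genes had negative log2 fold changes. Fth1 (chr19:9980598-9985098, plus strand), the ferritin heavy chain, was 997 to 1081 CPM in paternal DCHP livers (median 1059.8) and 1112 to 1213 CPM in control livers (median 1177). The groups did not overlap, as for 1.24% of all genes tested with paternal DCHP lower, although the ratio of the means was only 0.894. The log2 fold change of Fth1 was -0.16 ± 0.06 (SE) and lay between -0.18 and -0.15 under the 20 alternatives. Ftl1 (chr7:45457944-45459884, minus strand), the light chain, was 2557 to 3684 CPM in paternal DCHP livers (median 2808) and 3091 to 3688 CPM in control livers (median 3239). DCHP liver 2 alone among the paternal DCHP livers lay within the control range, and the log2 fold change was -0.18 ± 0.09 (SE, 95% interval -0.38 to 0.02). Ftl1 overlaps the annotated genes Gm10252 and Gm22133, and whether counting used strand is not given in the sources used here, so reads of these genes may not be separable.

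Slc40a1 (chr1:45908068-45926523, minus strand) encodes ferroportin, which exports iron from hepatocytes and macrophages. It was 93.0 to 133 CPM in paternal DCHP livers (median 116) and 121 to 144 CPM in control livers (median 134). Of the paternal DCHP livers, 4 lay below every control liver, and DCHP livers 3 and 5 lay within the control range. The log2 fold change was -0.17 ± 0.09 (SE, 95% interval -0.36 to 0.01). Kupffer cell markers summed to 249.7, 282, 362, 239, 701 and 478 CPM in paternal DCHP livers 1 to 6, against 207 to 327 CPM in control livers. All 11 of these markers had positive log2 fold changes and none was called, and their part in the Slc40a1 values was not tested.

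**Figure D2:**
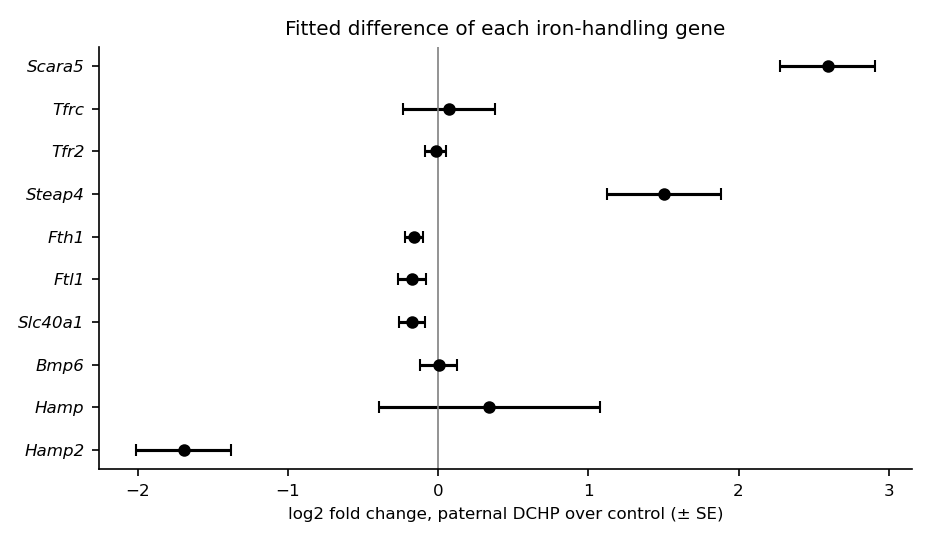
Log2 fold change of paternal DCHP over control for each of the 10 genes, with bars of 1 SE from the edgeR fit (n = 6 livers each). Scara5 at 2.59 and Steap4 at 1.5 lie to the right, Hamp2 at -1.69 to the left, and Hamp at 0.34 has the widest bar.

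The hepcidin genes differed in pattern. Hamp encodes hepcidin 1, the iron-regulating hormone of the mouse. Its level was 201, 455, 99.9, 574, 134 and 3.70 CPM in paternal DCHP livers 1 to 6, against 142, 218, 329.7, 31.7, 283 and 154 CPM in control livers 1 to 6. The groups overlapped through most of their range. The highest liver exceeded the lowest 155-fold in the paternal DCHP group and 10.4-fold in the control group. The lowest value, in DCHP liver 6, rested on 88 estimated counts in a library of 25598359. The log2 fold change of Hamp was 0.34 ± 0.74 (SE, 95% interval -1.24 to 1.92). Its sign depended on the fit. It was -0.41 with limma-voom, -0.32 with the replicate block and -0.10 without DCHP liver 4, and 16 of the 20 alternatives gave a positive value.

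Hamp2 encodes the second hepcidin of the mouse, which in mice does not appear to share the iron-regulating action of hepcidin 1. Its level was 24.8, 12.1, 22.2, 31.3, 15.2 and 6.89 CPM in paternal DCHP livers 1 to 6, against 51.8, 70.8, 87.9, 30.5, 68.0 and 54.7 CPM in control livers 1 to 6. A single pair of livers kept the groups from separating, since DCHP liver 4 (31.3 CPM) lay just above control liver 4 (30.5 CPM). The means were 18.7 ± 8.98 CPM in paternal DCHP livers and 60.6 ± 19.6 CPM in control livers (SD, n = 6 each), and the log2 fold change was -1.69 ± 0.32 (SE). Under the 20 alternatives it lay between -2.10 and -1.51. Without control liver 3, which had the highest Hamp2 level, it was -1.56, and Hamp2 then did not pass both limits.

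Hamp2 therefore made up a different share of the hepcidin transcripts in most livers. The share of Hamp2 in the sum of both levels was 11%, 2.58%, 18.2%, 5.17%, 10.2% and 65.1% in paternal DCHP livers 1 to 6, against 26.8%, 24.5%, 21%, 49%, 19.3% and 26.1% in control livers 1 to 6. In the paternal DCHP group 5 shares lay below the lowest control share, and the high shares of DCHP liver 6 and control liver 4 were found where Hamp was lowest. The summed level was 10.6 to 605 CPM in paternal DCHP livers (median 187) and 62.1 to 418 CPM in control livers (median 249). The transcripts of Hamp and Hamp2 are alike, at 94.6% identity over 410 aligned bases, and 16.6% of the 50-base windows of the Hamp transcript also occur in Hamp2. How reads shared by both were assigned is not given in the sources used here, so that low Hamp2 levels beside high Hamp levels are uncertain. Both genes also overlap the annotated plus-strand gene Gm44662.

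**Figure D3:**
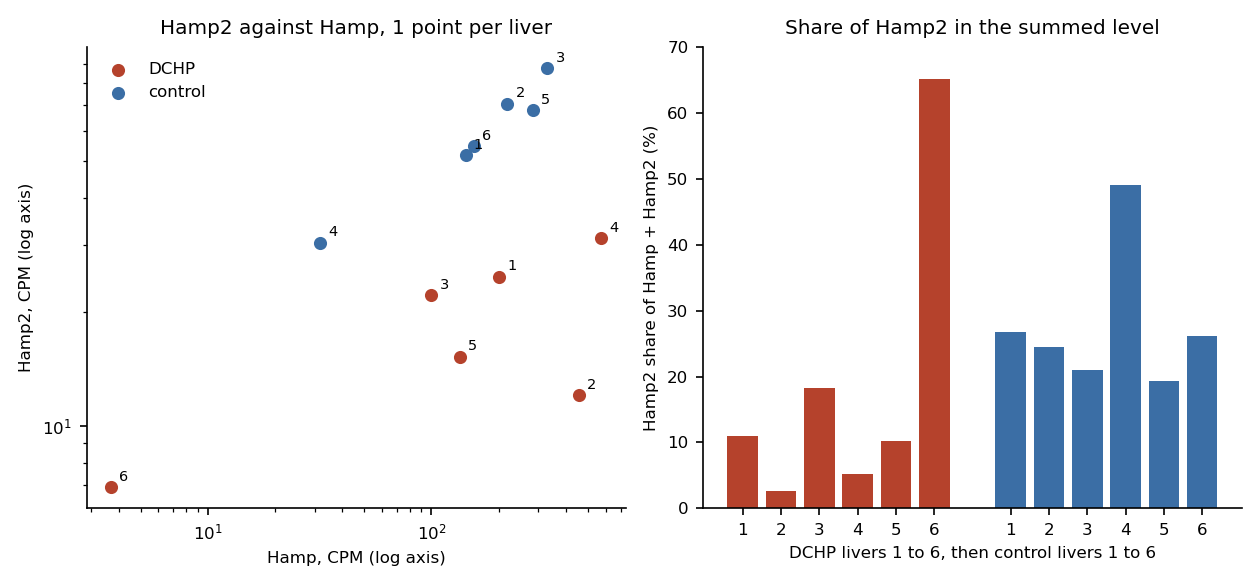
Left, Hamp2 against Hamp in CPM on log axes, with each point a numbered liver. Right, Hamp2 as a percentage of the sum of Hamp and Hamp2 for paternal DCHP livers 1 to 6 and then control livers 1 to 6. At a like level of Hamp, paternal DCHP livers lie below control livers, and the shares of DCHP liver 6 (65.1%) and control liver 4 (49%) stand above the others of their groups.

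Bmp6 (chr13:38345107-38500302, plus strand) encodes the BMP ligand that sinusoidal endothelial cells release when liver iron is high. It was measured at low levels, 3.72 to 5.57 CPM in paternal DCHP livers (median 4.51) and 4.05 to 5.03 CPM in control livers (median 4.41), on 88 to 182 estimated counts. The log2 fold change was 0.00 ± 0.13 (SE, 95% interval -0.27 to 0.27). Bmp6 overlaps Txndc5 on the opposite strand, an abundant gene with at least 3116 estimated counts per liver. Markers of sinusoidal endothelial cells summed to 224 to 290 CPM in paternal DCHP livers and 227 to 277 CPM in control livers.

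Targets and modulators of the BMP pathway gave no call. Id1, a direct SMAD target, was 2.88 to 5.88 CPM in paternal DCHP livers and 2.74 to 6.55 CPM in control livers, with a log2 fold change of -0.33 ± 0.22 (SE). Smad7, the feedback inhibitor of SMAD signalling, had a log2 fold change of -0.37 ± 0.18 (SE), and Atoh8, a BMP-responsive transcription factor, one of -0.33 ± 0.26 (SE). Smad6, Id2 and Id3, further genes listed for hepcidin control, had -0.01 ± 0.19, 0.19 ± 0.30 and -0.29 ± 0.27 (SE). Over the 27 genes tested in that list, 17 log2 fold changes were positive and 10 negative. Hjv (hemojuvelin, the BMP co-receptor) gave 0.19 ± 0.10, Tmprss6 (the protease that cleaves hemojuvelin) -0.11 ± 0.06, Hfe (the hemochromatosis protein) -0.01 ± 0.07 and Bmp2 (another hepcidin-inducing ligand) 0.20 ± 0.16 on the same scale. The adjusted p of edgeR's quasi-likelihood test was between 0.271 and 0.982 for the genes named in this paragraph, and none passed.

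Levels were also compared per kilobase of exon, with all annotated exons of a gene merged into 1 length. Ftl1 then had the highest mean of the 10 genes, 2184 CPM per kb in paternal DCHP livers and 2468 CPM per kb in control livers. Hamp followed with 596 and Fth1 with 302 CPM per kb in paternal DCHP livers, against 471 and 338 CPM per kb in control livers. Hamp varied so widely between livers that its order with Fth1 was not fixed within either group. This order also depends on the merged lengths, 410 bases for Hamp and 3469 bases for Fth1, which may exceed that of a single transcript. In CPM, Fth1 was above Hamp, with means of 1048 against 244 in paternal DCHP livers and 1172 against 193 in control livers. Scara5 averaged 6.50 CPM per kb in paternal DCHP livers and 1.08 CPM per kb in control livers, which placed it above Tfrc (3.56 CPM per kb) in the paternal DCHP group and below Tfrc (3.39 CPM per kb) in the control group. Bmp6 averaged 1.15 CPM per kb in both groups. Steap4 was at 107 and Hamp2 at 32.1 CPM per kb in paternal DCHP livers, against 37.9 and 104 CPM per kb in control livers.

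Single livers combined extreme values of several of the 10 genes. DCHP liver 4 had the highest Hamp, Hamp2 and Steap4 levels and the lowest Slc40a1 level of its group. DCHP liver 6 had the lowest Hamp and Hamp2 levels and the highest Tfrc level of its group. Control liver 4 had the lowest Hamp, Hamp2, Scara5 and Steap4 levels and the highest Tfrc and Ftl1 levels among the controls. DCHP liver 5 had the lowest Tfrc, Fth1, Ftl1 and Bmp6 levels of its group. That liver also had the highest Kupffer cell sum (701 CPM), an erythroid marker sum of 258 CPM against 35.9 to 98.8 CPM in the other paternal DCHP livers and 35.9 to 132 CPM in control livers, and the highest mitochondrial share of counts (8.03%). The part of these measures in its iron gene values was not tested.

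Relations between livers were examined within each group, for 10 pairs of genes and 20 relations in all, with two-sided exact permutation tests over 6 livers whose smallest possible p is 0.00278. Over 20 relations, a single relation at that smallest p could not pass a Benjamini-Hochberg adjusted p of 0.05. None passed by Pearson's r or by Spearman's rho, and missing this limit therefore says little about any 1 relation. The unadjusted p was under 0.05 for 5 relations by Pearson's r and 3 by Spearman's rho. Hamp and Hamp2 did not pass among control livers (r = 0.977, exact permutation p = 0.00417, adjusted p = 0.0694; rho = 0.943, p = 0.0167, adjusted p = 0.111). Their r was 0.899 without the 2 livers farthest from the median of Hamp. Among paternal DCHP livers the same pair had r = 0.747 (exact permutation p = 0.0847, adjusted p = 0.262; rho = 0.6, p = 0.242), and r turned to -0.621 without the 2 farthest livers, so that the value rested on them. Whether the groups differed in this relation was not tested. The assignment of reads shared by both transcripts is not given, and their part in these r values was not tested.

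Steap4 and Socs3, the STAT3-induced inhibitor of cytokine signalling, gave r = 0.942 among paternal DCHP livers (exact permutation p = 0.00694, adjusted p = 0.0694; rho = 0.943, p = 0.0167) and r = 0.857 among control livers (exact permutation p = 0.0375, adjusted p = 0.15; rho = 0.543, p = 0.297). Without the 2 livers farthest from the median of Steap4, r was 0.926 in the paternal DCHP group and 0.768 in the control group. Hamp and Tfrc had r = -0.540 among paternal DCHP livers (exact permutation p = 0.276; rho = -0.6, p = 0.242) and r = -0.902 among control livers (exact permutation p = 0.0347, adjusted p = 0.15; rho = -0.657, p = 0.175). The control value rested on the extreme livers, since r was -0.02 without the 2 farthest. Scara5 and Steap4 had r = 0.286 among paternal DCHP livers (exact permutation p = 0.582; rho = 0.371, p = 0.497) and r = 0.882 among control livers (exact permutation p = 0.0264, adjusted p = 0.15; rho = 0.943, p = 0.0167). Hamp and Bmp6 had r = 0.331 among paternal DCHP livers (exact permutation p = 0.486; rho = 0.257, p = 0.658) and r = 0.156 among control livers (exact permutation p = 0.79; rho = -0.2, p = 0.714).

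Among 11443 genes averaging 1 CPM or more, those whose log2 levels varied most like Scara5 within groups over the 12 livers were Bbs4 (r = 0.875), Sumf1 (0.873), Zkscan14 (0.867), Gpr180 (0.844) and Mrpl53 (0.840). Bbs4 is a subunit of the ciliary BBSome, and Sumf1 activates sulfatases. Those most like Hamp were Ilf2 (r = 0.930), Ndufaf4 (0.874), Tars2 (0.863), Apoa5 (0.838) and Pik3ap1 (0.837), against 0.792 for Hamp2 itself. Ilf2 is an RNA-binding protein and Apoa5 an apolipoprotein that governs plasma triglyceride. The 5 genes most like Scara5 each had a higher r among control livers, as for Bbs4 (0.971 against 0.722 in paternal DCHP livers). The 5 most like Hamp each had a higher r among paternal DCHP livers, as for Ilf2 (0.968 against 0.841 in control livers). With so many genes and 12 livers, these r values are descriptions of likeness only.

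Other genes of iron and heme handling were then tested, 96 in the table and 89 past the filter. Stat3, the transcription factor through which interleukin 6 induces hepcidin, was the single gene called. Its level was 99.6 to 225 CPM in paternal DCHP livers and 76.9 to 92.6 CPM in control livers, without overlap, and it rose by a log2 fold change of 0.83 ± 0.17 (SE, edgeR adjusted p = 0.0434). By adjusted p alone 12 of the 89 genes passed, 4 higher and 8 lower, where 3.84% of all genes tested did so (2.29% higher and 1.56% lower). Over the 89 genes 50 log2 fold changes were negative, with a median of -0.04.

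Of these 12 genes, 8 belong to mitochondrial iron use, heme handling and iron sensing and were lower in paternal DCHP livers. Slc25a37 (mitoferrin 1, which imports iron into mitochondria) was 26.8 to 34.2 CPM in paternal DCHP livers and 38.7 to 45.8 CPM in control livers, and its log2 level fell by 0.49 ± 0.08 (SE, adjusted p = 0.0212 in edgeR). It passed the adjusted p under each of the 20 alternatives. Slc25a28 (mitoferrin 2) fell by 0.34 ± 0.09 (adjusted p = 0.0855) and Nfu1, an iron-sulfur cluster scaffold, by 0.38 ± 0.09 (adjusted p = 0.0734). These 3 stood in a list of 19 genes of mitochondrial iron and iron-sulfur clusters, of which 18 had negative log2 fold changes (median -0.21), against 48.5% of all genes tested. By adjusted p 3 of the 19 were lower, against 1.56% of all genes. Only Slc25a37 of these 3 passed with the replicate block, or without control liver 3, 4, 5 or 6 or DCHP liver 2 or 4. After removal of the trend with gene length and GC content, 17 of the 19 were negative with a median of -0.19, and the list's median exonic length was 3647 bases against 4482 bases for all genes tested.

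Heme genes gave 4 lower and none higher among 17 by adjusted p, where 1.56% of all genes tested were lower. None of the 17 passed with the replicate block or without control liver 3, and 1 of them, Blvrb, passed without control liver 4, 5 or 6. Without DCHP liver 4, Blvrb and Slc46a1 passed. Alad and Urod, enzymes of heme synthesis, fell by 0.50 ± 0.12 and 0.25 ± 0.07 (edgeR adjusted p = 0.0661 and 0.0855). Blvrb, biliverdin reductase B, fell by 0.46 ± 0.09 (adjusted p = 0.0434), and Slc46a1, a folate transporter that also carries heme, by 0.28 ± 0.06 (adjusted p = 0.0532). Alas1, the rate-limiting enzyme of hepatic heme synthesis, was 112 to 209.7 CPM in paternal DCHP livers and 109 to 276 CPM in control livers and did not pass (adjusted p = 0.349). Among 4 iron regulatory genes, Fbxl5, the iron sensor that degrades iron regulatory protein 2, fell by 0.27 ± 0.08 (adjusted p = 0.0921). Epas1, the hypoxia factor HIF-2 alpha, rose by 0.27 ± 0.07 (adjusted p = 0.0823), and the iron regulatory proteins Aco1 and Ireb2 did not pass (adjusted p = 0.482 and 0.465).

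Uptake and storage genes outside the 10 gave 2 further genes. Slc39a14 (ZIP14, the hepatocyte importer of non-transferrin iron) was 255 to 425 CPM in paternal DCHP livers and 159 to 263 CPM in control livers, and its log2 level rose by 0.56 ± 0.15 (SE, adjusted p = 0.0807 in edgeR). Ncoa4, which delivers ferritin to lysosomes for iron release, was 221 to 262 CPM in paternal DCHP livers and 145 to 213 CPM in control livers, without overlap, and rose by 0.41 ± 0.09 (adjusted p = 0.0527). Trf, plasma transferrin, was 9891 to 13821 CPM in paternal DCHP livers and 9677 to 11896 CPM in control livers and did not pass (adjusted p = 0.538). Cp, the ferroxidase ceruloplasmin, did not overlap between groups, at 874.4 to 1181 CPM in paternal DCHP livers and 702 to 873.9 CPM in control livers, yet missed the limit (log2 fold change 0.29 ± 0.09, adjusted p = 0.111).

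These calls were close to the limit. Slc39a14 kept an adjusted p under 0.1 in 9 of the 20 alternatives, Epas1 in 7, Ncoa4 in 16, Stat3 in 17 and Blvrb in 18. Stat3 missed it without control liver 3, 4 or 6 (adjusted p = 0.112, 0.102 and 0.105), Ncoa4 without control liver 3, 4 or 6 or after the length and GC correction, and Blvrb without control liver 3 or with the replicate block. Without DCHP livers 1 and 4, 7 of the 89 genes passed. Slc39a14 (log2 fold change 0.36) and Epas1 (log2 fold change 0.25) were not among them.

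**Figure D4:**
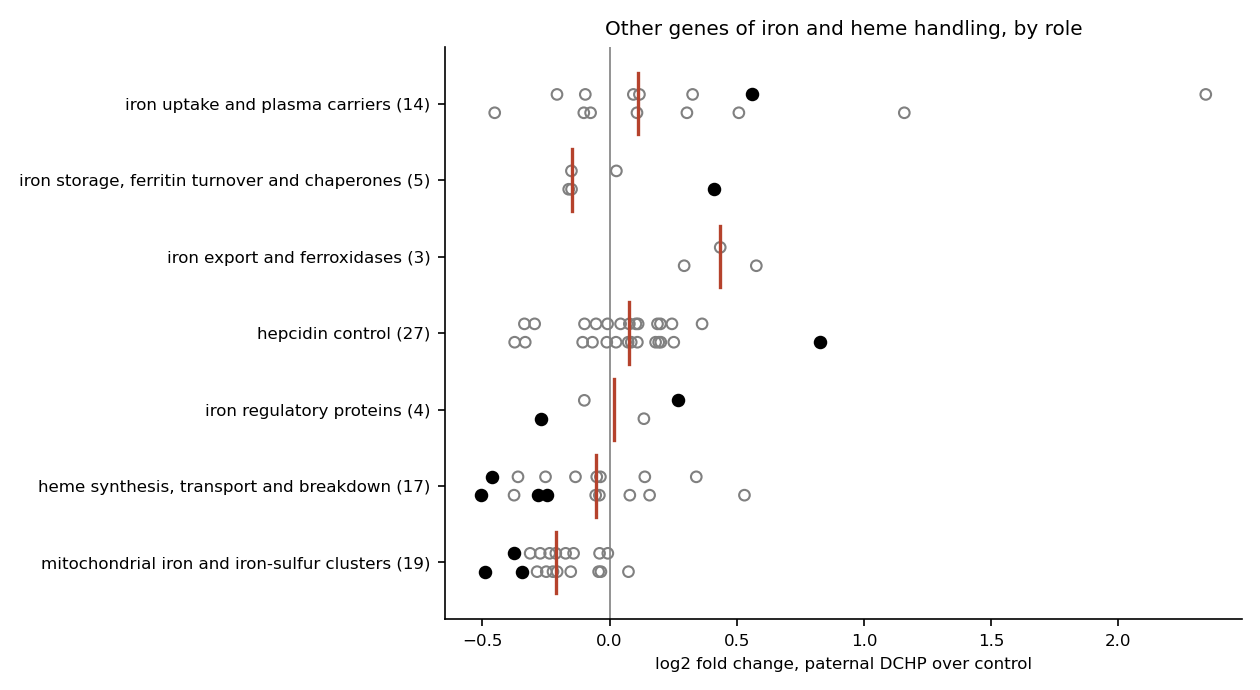
Log2 fold change of paternal DCHP over control for the 89 other genes of iron and heme handling, by role, with the number of genes tested in parentheses. Filled points had an adjusted p under 0.1, open points did not, and vertical bars are list medians; 18 of 19 genes of mitochondrial iron and iron-sulfur clusters lie below 0.

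Steap4, Stat3, Slc39a14 and Hamp are inducible by interleukin 6 in liver, as are acute phase genes. The summed level of 15 acute phase genes was 9816, 8507, 7041, 21330, 10950 and 8517 CPM in paternal DCHP livers 1 to 6, against 6529 to 7484 CPM in control livers. DCHP liver 3 lay within the control range, and DCHP liver 6 lay above it while its Hamp level was the lowest of all 12 livers. Each of the 15 had a positive log2 fold change, where 6418 of the 12459 genes tested did, and 5 of them passed both limits, where 0.963% of all genes tested did so with paternal DCHP higher. Saa1, an acute phase apolipoprotein, was 1934 CPM in DCHP liver 4, 75.4 to 173 CPM in the other paternal DCHP livers and 13.5 to 111 CPM in control livers. Socs3 was 5.85 to 35.0 CPM in paternal DCHP livers and 3.48 to 9.38 CPM in control livers, and rose by a log2 fold change of 1.54 ± 0.40 (SE, edgeR adjusted p = 0.0807). DCHP liver 4 was the highest of all 12 livers for Hamp, Steap4, Stat3, Socs3, Saa1 and Slc39a14, whereas Hamp2 was 31.3 CPM there. The part of the acute phase genes in the values of Steap4 and Hamp was not tested.

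**Figure D5:**
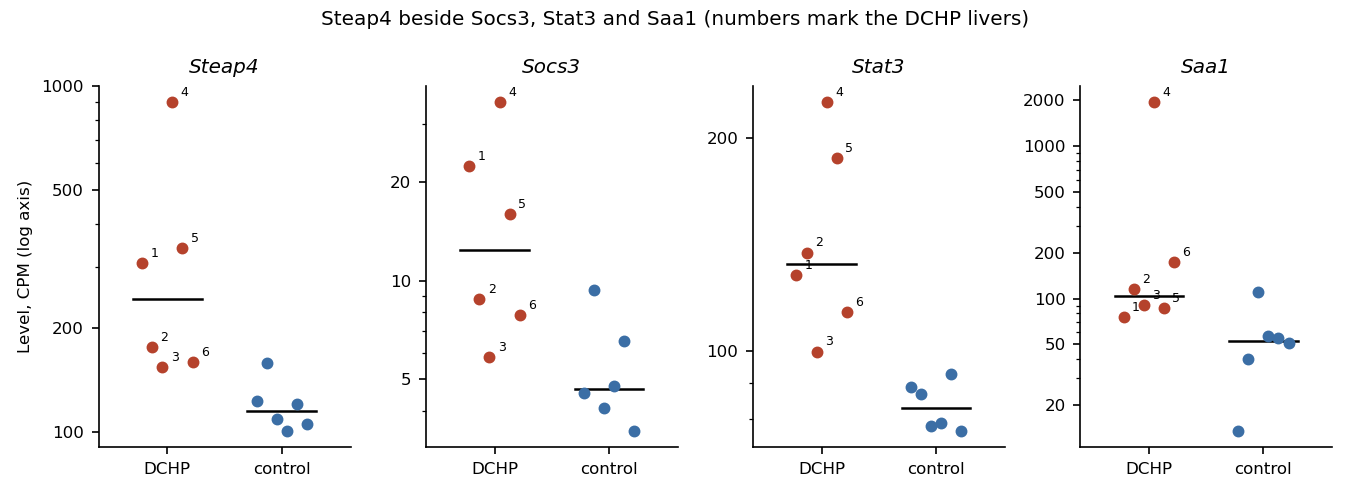
Levels of Steap4, Socs3, Stat3 and Saa1 in CPM on log axes, with paternal DCHP livers (numbered 1 to 6) at the left and control livers at the right, and bars at the medians. DCHP liver 4 is the highest in each panel, with 897 CPM of Steap4 and 1934 CPM of Saa1.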

How the data were processed

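Liver RNA was sequenced from 6 paternal DCHP and 6 control F1 males. The deposited table holds estimated counts per gene and liver from the authors, aligned to mm10 per the labels. For aligner, counter, gene annotation and strand, the setting is not given in the sources used here. For testing, the estimated counts were rounded to integers. Genes were filtered with filterByExpr of edgeR 4.0.16 (minimum count 10), scaled by TMM and tested with the quasi-likelihood test in R 4.3.3, with Benjamini-Hochberg adjustment over all 12459 genes tested. A gene was called at an adjusted p under 0.1 and a fold change over 1.5. CPM used TMM-scaled totals, and log2 CPM for correlations used a prior count of 2. Depth was 23794728 to 30445338 estimated counts per liver. The fewest estimated counts of the 10 genes in a liver were 55.

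The 10 genes, the lists of iron, marker and acute phase genes and the pairs correlated were chosen with earlier results of these data known. The genes named are the 10, in each iron list every called gene or else the gene of smallest p, the 5 genes most like Scara5 and most like Hamp, and those of the correlated pairs. Other genes are named for their role or their adjusted p and were chosen after their values were seen. Exact permutation tests went through all orders of the livers with numpy 2.4.6, and their ranks and adjusted p used scipy 1.17.1. Alternatives were RLE scaling, no filter, a filter of 1 CPM, DESeq2 1.42.0, limma-voom (limma 3.58.1), the replicate number as a block, and each liver left out. A length and GC correction, the removal of DCHP livers 1 and 4, and the adjusted p without a fold limit were added after seeing the data. The fits were tested on simulated data. Gene positions and exon lengths came from GENCODE for GRCm38 and promoters from RefSeq for GRCm38.p6.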

Additional observations from a re-analysis of the deposited data

Results flagged for a closer look

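In 42 groups of 6 livers checked for a liver far from the others, 4 values stood out. Chance gives about 1 group in 20 where values are normally distributed, which was not checked for these levels and shares. Steap4 was 897 CPM in DCHP liver 4, against 154 to 339 CPM in the other paternal DCHP livers. Ftl1 was 3684 CPM in DCHP liver 2, against 2557 to 2963 CPM in the other paternal DCHP livers. The share of Hamp2 in the summed level of both hepcidin genes was 65.1% in DCHP liver 6, against 2.58% to 18.2% in the other paternal DCHP livers. In control liver 4 this share was 49.0%, against 19.3% to 26.8% in the other control livers. Hamp was the lowest of its group in both of the last livers, at 3.70 CPM in DCHP liver 6 and 31.7 CPM in control liver 4.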

How the results depend on the processing

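Leaving out each liver in turn gave 1 to 3 of the 10 genes past the limits, a count that their choice had largely fixed, 0 to 4 other iron genes called and 1 to 13 other iron genes past the adjusted p alone. Other iron genes called numbered 2 with a filter of 1 CPM, 3 with DESeq2 (Stat3, Lcn2 and Cd163) and 12 with no fold limit, against 1. Those past the adjusted p alone numbered 7 without DCHP livers 1 and 4, against 12. Over all genes, calls numbered 326 with DESeq2, 103 after the length and GC correction and 7 (without control liver 3) to 233 (without DCHP liver 6) on leaving out a liver, against 159. The cause was not tested.

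The replicate number as a block gave 59 calls over all genes and 3 other iron genes past the adjusted p. The log2 fold change of Steap4 was then 1.17, and Steap4 did not pass both limits. Same-numbered livers deviated together with correlations of -0.119 to 0.174. Values for differently numbered livers are not given beside them, so these correlations cannot settle whether the number pairs livers. All scaling alternatives left the median log2 fold change of all genes between -0.02 and 0.02.

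Some correlations changed sign with a liver left out. The ranges were -0.0991 to 0.582 for Hamp and Bmp6, -0.325 to 0.540 for Hamp and Id1, -0.428 to 0.434 for Hamp and Smad7, -0.0599 to 0.537 for Scara5 and Steap4 and -0.386 to 0.635 for Tfrc and Fth1 in paternal DCHP livers. In control livers they were -0.234 to 0.323 for Hamp and Bmp6 and -0.110 to 0.657 for Hamp and Id1. Leaving out a liver passed no correlation at the adjusted p, where fewer livers raise the smallest possible p further. The fewest estimated counts among the 10 genes were 55, for Scara5 in control liver 4, and 88, for Hamp in DCHP liver 6 and Bmp6 in DCHP liver 5.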
